A study of Mus musculus with 4 samples.

Results

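Runx2 regions in 3' UTRs, the untranslated ends of mRNAs downstream of the stop codon, were examined in differentiating MC3T3-E1 cells. Overlapping peaks (1 bp or more) of the 3 lists were joined, which gave 67703 regions. Of these, 871 or 1.29% (95% interval 1.20 to 1.37) were retained because their centre lay in an exon downstream of the stop codon of a protein-coding transcript, in no coding sequence (CDS) and more than 1 kb from every protein-coding transcription start site (TSS). The rule used position alone. The centres fell in 806 genes, of which 743 held 1 region, 61 held 2 and 2 held 3.

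MC3T3-E1 is a preosteoblast line from C57BL/6 mice, used here as subclone 4, and differentiation was induced with ascorbic acid and beta-glycerophosphate. Runx2 ChIP-Seq with the antibody M70 was carried out on proliferating cells at day 0, matrix-depositing cells at day 9 and mineralizing cells at day 28, and input DNA came from matrix-depositing cells. The groups were stages of a single line with no labelled genetic change. The 2 libraries of each time point were pooled before peaks were called, so each time point had a single list, differences between time points had no replicate error, and no test between them was possible. The study compared the time points to follow Runx2 occupancy through osteoblast differentiation.

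Runx2 is a Runt-domain transcription factor required for bone formation, and it binds DNA at the core motif TGTGGT, usually with its partner CBF-beta. Transcription factors mostly act through promoters and distal enhancers, but a ChIP-Seq peak in the DNA that encodes a 3' UTR is also known from genome-wide maps. The 3' UTR of the mRNA itself carries polyadenylation signals and sites for microRNAs and RNA-binding proteins. ChIP-Seq reports the protein on DNA and not on the transcript.

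The stretches below are shown because they hold the core motif at the centre of the highest-ranking 3' UTR regions. They come from the 12 regions with the highest mean score percentile, among those eligible for printing, with TGTGGT within 50 bp of the centre. The reference sequence NCBIM37 (mm9) was read 5′ to 3′ on the strand of the motif, with 12 bases on either side and the motif in capitals. Each name is followed by the position and strand of the stretch, and by its direction relative to the transcript.
St6galnac4 (chr2:32453407-32453436, minus, antisense): ccagcacagtccTGTGGTcagaccatcaga
E030010N08Rik (chr1:95125945-95125974, minus, antisense): ctggatgtggggTGTGGTggctgaccttgc
Ccdc97 (chr7:26496221-26496250, plus, antisense): gctcctgtccagTGTGGTgggatcccagct
Tmem177 (chr1:121806499-121806528, minus, sense): tgaatctcttagTGTGGTtgcacccacagc
Ptpn14 (chr1:191699970-191699999, plus, sense): tgctatgccagaTGTGGTtggcttttgtgg
Cap1 (chr4:122536809-122536838, plus, antisense): tgcctgctatgtTGTGGTtgatgctgaccc
Mafg (chr11:120487658-120487687, minus, sense): tgtgcagctgggTGTGGTgcctgctgtgca
Cd3d (chr9:44794747-44794776, minus, antisense): cctgctttgggcTGTGGTaaggcagcaaaa
Tpd52 (chr3:8929814-8929843, minus, sense): ttctttctctatTGTGGTtttaccagtgtc
Ftsj1 (chrX:7816138-7816167, plus, antisense): tgtggacattccTGTGGTcacattgattgg
Mkl2 (chr16:13415018-13415047, plus, sense): ccctagagcccaTGTGGTagaagggcagaa
Relt (chr7:107994900-107994929, minus, sense): gtgcctgtggccTGTGGTtttcaatgcccc

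Each peak carried the MACS score, the p-value on a scale of −10 × log10. The lowest score was 100 in each list, a p-value of 1e-10. Many peaks were tied at a score of 3100 and have no order among themselves. Of the 3' UTR regions with a peak in the list, 3 of 201 had that score at day 0, 19 of 764 at day 9 and 10 of 435 at day 28. Over all peaks it was 192 of 25457, 2699 of 60596 and 1468 of 40330. Because scores grow with read depth, each score was turned into a percentile of its list, and scores were not compared across lists. The lists hold no read counts, so the values here were not corrected for read depth and may still depend on it. By the read totals in the study's supplement, the pool of proliferating cells was read most deeply, although its list is the shortest. Intervals are 95% intervals and cover counting error only, and neighbouring regions are not fully independent of each other.

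Runx2 regions were slightly more frequent in 3' UTRs than in the genome as a whole. Taken over all regions, promoters included, this excess was not seen among the strongest peaks. The 3' UTR bases that met the rule made up 25.1 Mb, or 0.981% of the 2.56 Gb of known sequence, so the share of regions was 1.31 times the share of bases. At day 0, 201 regions with a peak lay in 3' UTRs, 0.807% (0.699 to 0.926) of that list's regions and 0.823 times the share of bases. The number was 764 at day 9, or 1.33% (1.24 to 1.43) and 1.36 times the share of bases. It was 435 at day 28, or 1.10% (1.0 to 1.21) and 1.12 times. These intervals cover counting error alone, with a single pooled list per time point, and give no test between time points. The totals include regions within 1 kb of a TSS, which the rule keeps out of 3' UTRs. Such regions made up 8862 of 24914 at day 0 and 11747 of 57378 at day 9. Their part in the ratios was not tested. The ratio over all time points was 1.02 (0.923 to 1.13) when each list was limited to its 25457 top-scoring peaks. It was 0.797 (0.650 to 0.968) among peaks with a score of at least 1000. In the day 9 list, 25.8% of regions within 1 kb of a TSS stood at percentile 90 or above. The share was 6.81% of 3' UTR, 6.56% of intron, 6.43% of intergenic, 6.97% of downstream and 4.31% of CDS regions. Whether the lower ratio among strong peaks is particular to 3' UTRs was not tested.

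Per Mb of sequence, the 3' UTR lay close to introns and far below promoters. It held 34.7 region centres per Mb, against 29.0 in introns, 16.1 in intergenic sequence, 37.1 in the 5 kb downstream of transcript ends, 70.8 in CDS and 209 within 1 kb of a TSS. CDS and 3' UTR held almost the same density at day 0, with 7.88 and 8.01 centres per Mb. Intron sequence held 7.78 and intergenic sequence 5.29. At day 9 the CDS value was 67.2 per Mb, the 3' UTR value 30.5 and the intron value 24.3. At day 28 the densities were 21, 17.3 and 15 per Mb in the same order. Between the lists of day 0 and day 9, the density thus rose less in the 3' UTR than in the CDS, although both are exonic. Within the 3' UTR regions, 23.1% had a peak at day 0, 87.7% at day 9 and 49.9% at day 28, beside 36.8%, 84.7% and 58.2% of all regions.

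The time points at which 3' UTR regions carried peaks resembled those of intron regions more than those of CDS or promoter regions. A peak in the day 9 list alone was the most frequent pattern, in 391 of 871 regions or 44.9% (41.6 to 48.3), where all regions gave 34.5%. CDS regions had a peak at day 9 alone in 68.1%, and the 3' UTR share was lower by 23.2 percentage points (Newcombe interval of the difference -27.0 to -19.3). Intron regions had 40.7%, and here the 3' UTR share was 4.20 points higher (0.869 to 7.57). Peaks at days 9 and 28 marked 215 regions, 24.7% (21.9 to 27.7) beside 21.1% of all regions. The intron share for that pattern differed by 0.617 points (-2.18 to 3.63).

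Regions with peaks at all 3 time points numbered 149 in 3' UTRs. This was 17.1% (14.7 to 19.8), where all regions gave 27.4%, CDS regions 8.62%, intron regions 17.2% and promoter regions 69.6%. The difference from introns was -0.0795 points (-2.48 to 2.60), and that from CDS was 8.49 points (5.81 to 11.4). A peak at day 28 alone was found in 64 regions, 7.35% (5.70 to 9.29) beside 7.59% of all regions, and a peak at day 0 alone in 36, 4.13% (2.91 to 5.68) beside 5.60%. Peaks at days 0 and 9 but not 28 were seen in 9 regions, 1.03% beside 1.69% of all regions, and peaks at days 0 and 28 but not 9 in 7, 0.804% beside 2.06%. Absence from the day 9 list alone was rarer than in introns, where it was seen in 2.10%, with a 3' UTR minus intron difference of -1.29 points (-1.74 to -0.429).

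The share of regions with a peak at day 9 alone was lower in lists cut to equal length. The day 9 list held 60596 peaks, the day 28 list 40330 and the day 0 list 25457. The cut raised the lowest score kept to 346 in the first and 224 in the second, and left 100 in the last. Regions with a peak at day 9 alone had a median score of 139, so the cut by itself removed most of these peaks. Under a common score limit, their share was 34.5% for 200, 39.8% for 500 and 45.5% (35.6 to 55.8) for 1000. Whether list length set the share was not tested. With each list limited to its 25457 top-scoring peaks, 379 regions lay in 3' UTRs and 61 of them, 16.1% (12.5 to 20.2), had a peak at day 9 alone, where all regions gave 11.9%. The CDS share was then 25.6%, so that the 3' UTR share was still lower by 9.46 points with an interval of the difference from -14.6 to -4.12. The intron share was 17.0%, and its difference from the 3' UTR, -0.920 points (-4.34 to 3.17), included 0. In the same lists 24.3% of 3' UTR, 26.5% of CDS and 22.4% of intron regions had peaks at all 3 time points, beside 37.7% of all regions. The 3' UTR minus CDS difference for this pattern was -2.21 points (-7.81 to 3.57), and the difference from all regions was -13.4 points (-17.5 to -8.84). The lower share of CDS regions with peaks at all time points was therefore not seen with lists of equal length. A peak at day 0 alone was then found in 19.5% (15.7 to 23.9) of 3' UTR regions, 7.12 points (2.34 to 12.1) above the CDS share of 12.4% but close to the 20.1% of all regions, with a difference from the latter of -0.554 points (-4.25 to 3.75). Intron regions had 23.5% and intergenic regions 29.3%.

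**Figure D1:**
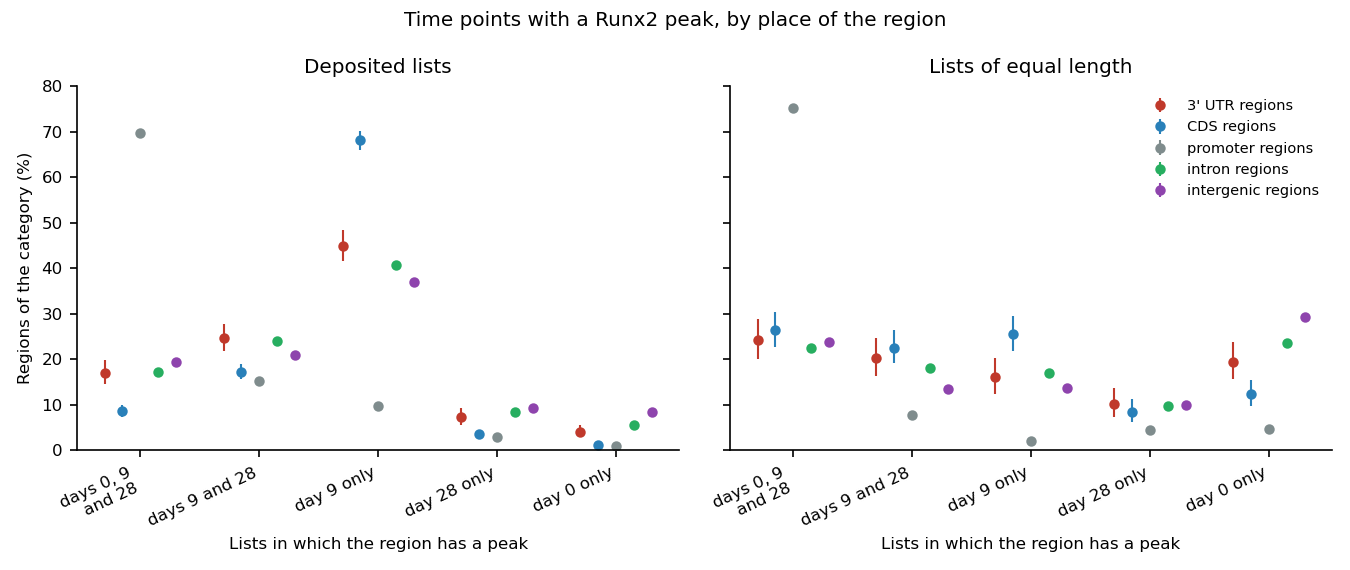
Percent of regions (y axis) with a peak in the lists named on the x axis, for regions with their centre in 3' UTRs, CDS, promoters (within 1 kb of a TSS), introns and intergenic sequence, with the deposited lists on the left and lists of equal length on the right. Points are shares and bars 95% Clopper-Pearson intervals; 3' UTR regions with a peak at day 9 alone stand at 44.9% on the left, between introns and CDS, and at 16.1% on the right, beside introns.

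The 3' UTR peaks were of low to middle rank in each list. The median percentile was 45.2 (34.2 to 52.2) at day 0, 39.3 (35.7 to 42.3) at day 9 and 40.2 (36.2 to 45.6) at day 28. Peaks of CDS regions ranked lower at day 9, with a median percentile of 29.9 (27.9 to 32.1), and peaks of intron regions ranked higher, with 44.6 (43.9 to 45.2). At day 0 the intron median was 44.1, within the interval of the 3' UTR value, and so was the intron median at day 28. Promoter peaks stood at 59.5, 79.2 and 76.3 at days 0, 9 and 28. In the day 9 list 52 of 764 regions in 3' UTRs, or 6.81%, stood at percentile 90 or above. The share was 6.56% of intron, 6.43% of intergenic, 6.97% of downstream, 4.31% of CDS and 25.8% of promoter regions.

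Among the larger groups, peaks ranked higher in regions with peaks in several lists than in regions with a peak in a single list. Regions with peaks at all time points had a median day 9 percentile of 73.3 (66.3 to 76.3), those with peaks at days 9 and 28 had 59.2 (53.9 to 65.7), and those with a peak at day 9 alone had 22.6 (20.4 to 25.1). No region of the last group had a score above 893 or reached percentile 90 of the day 9 list. Regions with a peak at day 28 alone had a median percentile of 14.9 and a highest score of 444, and regions with a peak at day 0 alone had 18.5 and a highest score of 857. The small groups did not follow this order, with a median day 0 percentile of 16.8 in the 9 regions with peaks at days 0 and 9 and a median day 28 percentile of 13.7 in the 7 regions with peaks at days 0 and 28. A low-ranking peak lies near the p-value threshold, and whether its absence from another list came from depth was not tested. The median width of a 3' UTR region was 631 bp (604 to 662), close to 607 bp in CDS, 652 bp in introns and 641 bp in intergenic sequence, and below 1128 bp in promoters. Regions with peaks at all time points were wider, with a median of 1100 bp against 460 bp for a peak at day 9 alone. The single day 9 peaks of these groups had median widths of 675 bp and 460 bp, and the peaks found at day 0 alone had 901 bp.

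**Figure D2:**
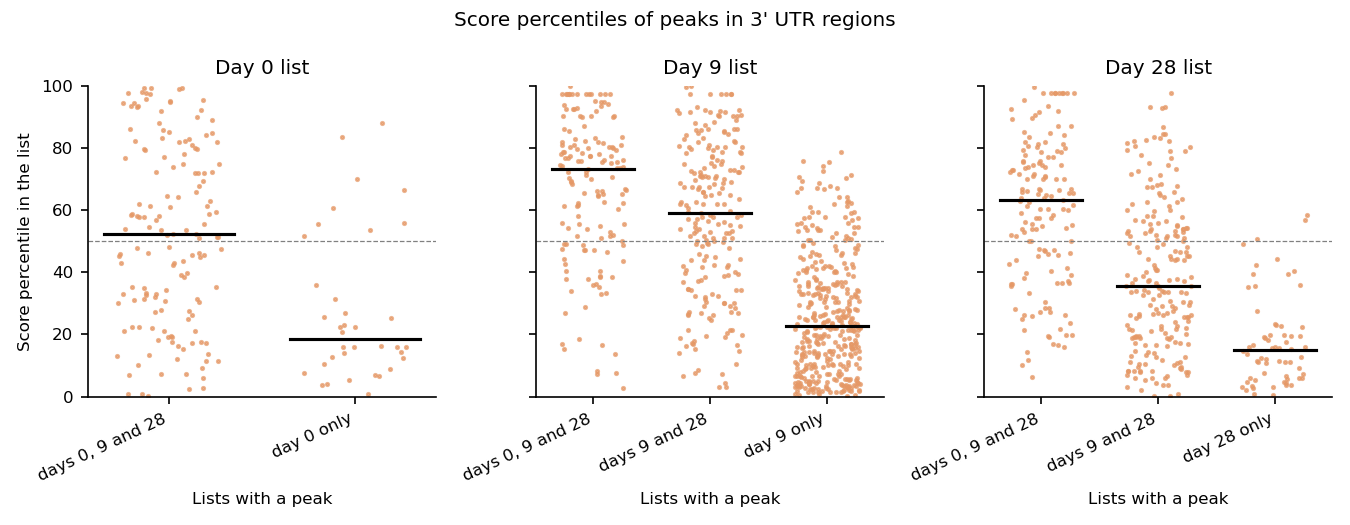
Score percentile of the peak in its own list (y axis) for 3' UTR regions, with 1 panel per list and 1 column per set of lists in which the region had a peak (x axis); the 16 regions with peaks at days 0 and 9 or 0 and 28 are left out. Each point is a region, black lines are medians and the dashed line is the middle of the list; in the day 9 panel the medians fall from 73.3 to 59.2 to 22.6.

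Among regions with peaks at all time points, the highest ranks belonged to genes of varied function. The region in St6galnac4, which encodes a sialyltransferase, spanned chr2:32452209-32454548 and had a score of 3100 at days 0, 9 and 28. Its centre lay 656 bp after the stop codon and 1850 bp from the nearest TSS. Olfml3, which encodes a secreted olfactomedin-domain protein, carried a region at chr3:103537699-103539640 with a score of 3100 at all 3 time points, 1096 bp after the stop codon and 2194 bp from a TSS. Nmt1, which encodes an N-myristoyltransferase, had the same tied scores at chr11:102927805-102929982, and there the nearest TSS was 10714 bp away. These 3 regions could not be ranked among themselves.

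The next regions in rank also had peaks high in every list, at percentile 82.0 or above. Crispld2, the gene of a secreted CAP-domain protein, had scores of 2174, 3100 and 3100 at days 0, 9 and 28, with 6 copies of TGTGGT in the region of 2088 bp and none within 50 bp of its centre. Polr2c, a subunit of RNA polymerase II, had 1506, 3100 and 3100. Grap2, an adaptor of T-cell signalling, had 1980, 3100 and 2954 and no region within 1 kb of its TSSs. Tab1, a partner of the kinase TAK1 in TGF-beta and cytokine signalling, had 2025, 3100 and 2266, and the centre of its region of 3145 bp lay 12 bp after the stop codon. Rcn3, a calcium-binding protein of the secretory pathway, had 1120, 3100 and 3100, and its centre lay 39 bp before the transcript end. Rftn2, of the raftlin family, had 1451, 1929 and 2121, and Fam131a had 666, 3100 and 3100. Of these 10 regions, 1 had TGTGGT within 50 bp of the centre and 8 had it somewhere in the region, the exceptions being Olfml3 and Rftn2.

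Regions with peaks at days 9 and 28 but not at day 0 also reached the top of the lists. Wdr41 had a score of 3100 on both days, 6 copies of TGTGGT in the region and a centre 3 bp before the transcript end. Tagln2, which encodes an actin-binding protein of the transgelin family, had 3199 at day 9 and 2346 at day 28. Il18rap, an accessory chain of the interleukin-18 receptor, had 3100 and 1542. E030010N08Rik had 1970 and 2363, and Trmt61a, a subunit of a tRNA methyltransferase, had 3106 and 1274. These peaks had no counterpart in the day 0 list at a score of 100.

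The highest peaks of the single-list groups were lower. At day 9 alone they lay in Diras1 (a Ras-family GTPase) with a score of 893, Myst2 (a histone acetyltransferase) with 755, C920021L13Rik with 748, 5730596B20Rik with 700 and Arpc1b (a subunit of the Arp2/3 complex) with 646. The Arpc1b region was also in a 3' UTR of Pdap1. At day 28 alone they lay in 1810008A18Rik with 444, Atic (an enzyme of purine synthesis) with 419, Endou with 338, Fancc (a Fanconi anaemia protein) with 323 and Bnc2 (a zinc finger protein) with 279. At day 0 alone they lay in Chrna3 (a nicotinic acetylcholine receptor subunit) with 857, Syt16 with 705, Gdpd4 with 456, Ly6f with 414 and Slc25a12 (a mitochondrial carrier) with 353. The Chrna3 peak stood at percentile 88.0 of the day 0 list and had no peak above threshold later.

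The genes with most 3' UTR regions, Foxk1 and Ntn1, each held peaks of unequal score in the day 9 list. Foxk1, a forkhead transcription factor, had 3 regions, with day 9 scores of 2206, 233 and 170 at 1134, 2235 and 3561 bp after the stop codon. The strongest also had a day 28 score of 635, the middle one had no peak at day 28, and the last had 154. Ntn1, the guidance cue netrin-1, had 3 regions with day 9 scores of 131, 400 and 103 at 818, 1780 and 2852 bp after the stop codon. None of these 6 regions had a peak at day 0, where only 23.1% of all 3' UTR regions had one. By the naming rule, 2310046O06Rik, 2700081O15Rik and Adam11 followed with 2 regions each, and only the 2700081O15Rik region at 277 bp after the stop codon had peaks at all time points, with 331, 911 and 716 at days 0, 9 and 28.

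Regions on both sides of the distance limit around TSSs were found in 3' UTRs. Just inside it, the B230217C12Rik region was 1002 bp from a TSS with scores of 102, 747 and 848 at days 0, 9 and 28, and the Chd8 region was 1046 bp away with 188 at day 9 and 145 at day 28. Just outside it, a region in the 3' UTR of D830046C22Rik was 989 bp from a TSS with 317, 616 and 916, and a region in the 3' UTR of Marveld1 was 950 bp away with 739, 3024 and 2595. Most 3' UTR regions were far from the limit, with a median of 11055 bp to the nearest TSS and quartiles of 5248 and 24796 bp. In 23 regions (2.64%) the centre lay within 1 kb of the start of a transcript of a non-coding gene.

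Runx2 regions lay along the whole 3' UTR, more densely after the stop codon and less densely before the transcript end. Distances were measured along the spliced 3' UTR of the longest annotated 3' UTR that held the centre, and eligible bases along the longest 3' UTR of each gene. The median centre lay 804 bp (716 to 897) after the stop codon and 884 bp (811 to 952) before the transcript end, at a relative position of 0.468 (0.430 to 0.504), where 0 is the stop codon and 1 the end. The first 250 bp held 194 centres, 22.3% (19.6 to 25.2) of the regions in 16.9% of the eligible bases. The last 250 bp held 111 centres, 12.7% (10.6 to 15.1) of the regions in 17.6% of the bases.

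Divided into 10 equal parts, the 3' UTR held 51.8 centres per Mb in the part next to the stop codon and 25.3 per Mb in the part next to the end. The parts between them held 31.6 to 39.5 per Mb. From 250 to 1000 bp before the end the density was 44.1 and 44.4 per Mb, so the decrease was close to the end itself. Many regions reached beyond the 3' UTR. The stop codon lay in 251 regions (28.8%), the transcript end in 169 (19.4%) and both in 68 (7.81%), and 499 (57.3%) lay wholly in the 3' UTR part of an exon. A region was given to the 3' UTR by its centre, and how much of the higher density after the stop codon came from regions that continue into the CDS was not tested.

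**Figure D3:**
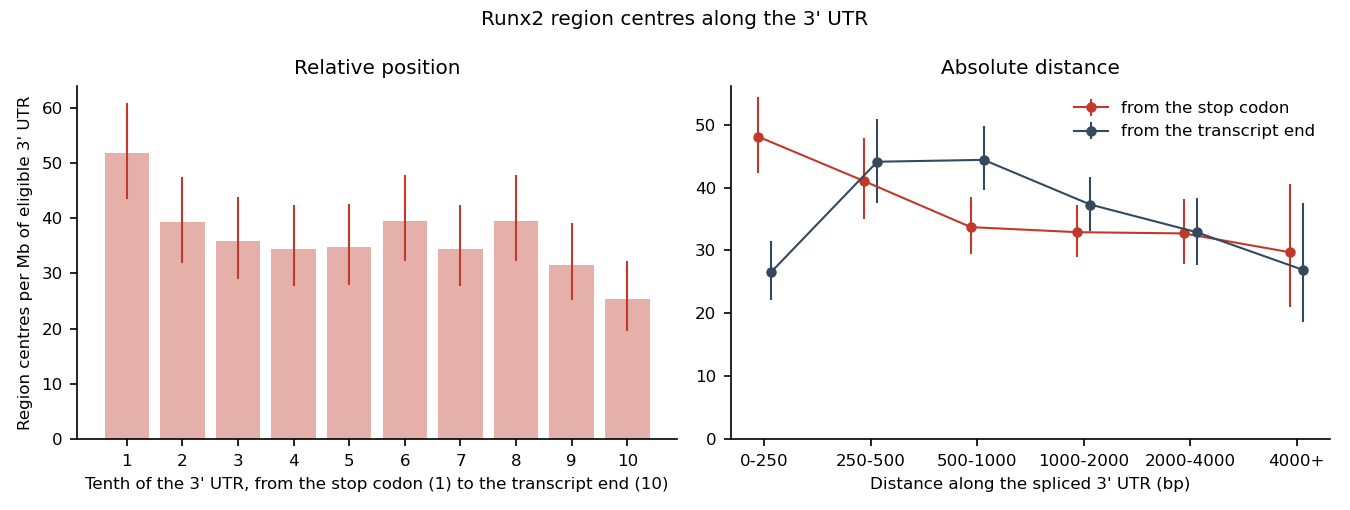
Density of region centres per Mb of eligible 3' UTR (y axis, both panels), in 10 equal parts of the 3' UTR from stop codon to transcript end (left) and by distance in bp from the stop codon or from the transcript end (right). Bars and points are densities and error bars scale the 95% interval of each share; the density falls from 51.8 per Mb in the part after the stop codon to 25.3 per Mb in the last.

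Longer 3' UTRs held more regions but not a higher density. Genes with a 3' UTR region had a median 3' UTR of 2022 bp (1888 to 2134), against 888 bp (869 to 910) over all 19066 genes with an eligible 3' UTR. The share of genes with a region rose with eligible length, from 0.861% under 500 bp to 12.8% (10.6 to 15.2) at 4000 bp and over. The number of regions per Mb was 38.0 under 500 bp, 40.4 from 500 to 2000 bp in both classes, 36.7 from 2000 to 4000 bp and 28.1 at 4000 bp and over. By chromosome, the density was highest on chromosome 11 with 56.8 per Mb (109 regions) and lowest on chromosome X with 4.81 per Mb (5 regions), chromosome Y aside, which had none in 0.00861 Mb. Regions of any place numbered 5425 on chromosome 11 and 967 on chromosome X. The 3' UTR share of them was 2.01% and 0.517%, beside 1.29% of all regions.

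The Runx core motif was concentrated at the centres of the 3' UTR regions. TGTGGT on either strand (ACCACA when read on the other) lay within 50 bp of the centre in 211 of 871 regions, 24.2% (21.4 to 27.2), equal to the 24.2% of all regions. In windows of the same length 450 to 550 bp on either side it was found in 7.0%, and in 229677 windows of 101 bp from 3' UTRs outside any region in 7.03%. The share at centres was thus 3.46 times that of the flanks, and 17.2 points (14.5 to 20.2) above 3' UTR sequence without a region. Intron regions had the motif in 28.8%, higher than 3' UTR regions by 4.61 points (1.60 to 7.39). CDS regions had 21.1%, and the 3' UTR minus CDS difference of 3.14 points (-0.135 to 6.55) included 0. Promoter regions had 6.67%.

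Over whole regions, 582 of 871 (66.8%, 63.6 to 69.9) held at least 1 TGTGGT. The density was 1.62 copies per kb of region, against 0.722 per kb in 3' UTR sequence outside regions. Regions with a peak at day 9 alone had 2.06 per kb, regions with peaks at days 9 and 28 had 1.53 and regions with peaks at all time points had 1.39, over widths that rise in the same order. At the centre the motif share was 26.6% (22.3 to 31.3) for day 9 alone, 22.8% (17.4 to 29.0) for days 9 and 28 and 22.8% (16.3 to 30.4) for all time points. The difference between the first and the last was -3.78 points for all time points minus day 9 alone (-11.3 to 4.67), so no difference between these groups was detectable at this number of regions. By day 9 percentile, the motif share was 27.7% from 0 to 25, 19.8% from 25 to 50, 25% from 50 to 75 and 24.8% above 75, with overlapping intervals, so no rise with the score was seen.

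**Figure D4:**
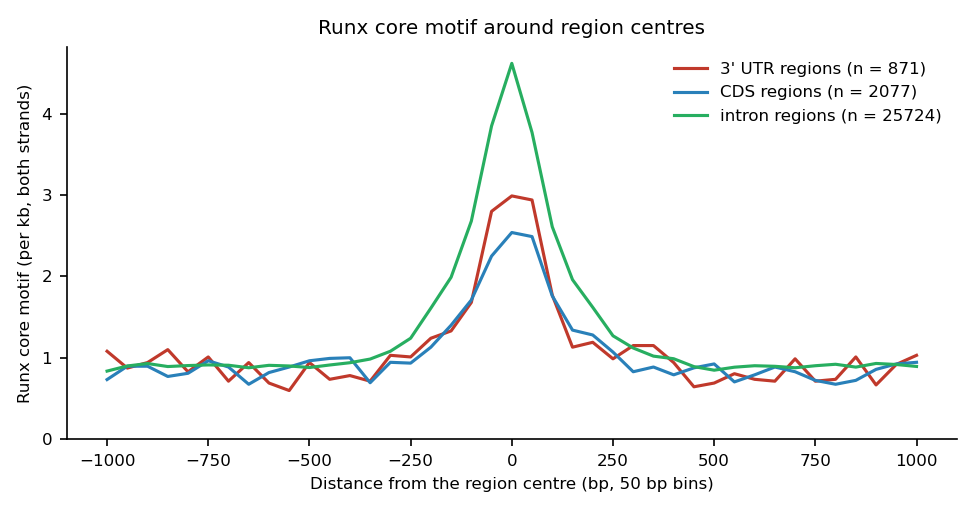
Copies of the Runx core motif per kb on both strands (y axis) in 50 bp bins of distance from the region centre (x axis) for 3' UTR, CDS and intron regions. Lines join the bin values; all of them peak at the centre, with 3' UTR regions at 2.99 per kb between CDS (2.54) and intron regions (4.62).

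The motif had no firm preference for the strand of the transcript. It lay on the transcript strand alone in 110 regions, 52.1% (45.2 to 59.0) of those with the motif, on the opposite strand alone in 86 (40.8%) and on both in 15 (7.11%). At least 2 copies were present in 38 regions. Of 254 copies at the centres, 99 or 39.0% (32.9 to 45.3) were followed by T, which gives TGTGGTT, as in the stretches shown for Tmem177, Ptpn14, Cap1, Tpd52 and Relt. That share was 8.17 points (2.34 to 14.3) higher than in 3' UTR sequence outside regions, where it was 30.8%, and 10.4 points (4.57 to 16.6) higher than the 28.6% at intron region centres. Against the flanks of the same regions the difference was 8.21 points, with an interval (-1.99 to 17.7) that included 0. TGTGGTC made up 28.3% against 19.8% outside regions. TGTGGTG made up 20.1% against 29.3% outside regions, a difference of -9.18 points (-13.7 to -3.78), and the 36.0% at intron centres was higher still.

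The 3' UTR regions were richer in G and C than other 3' UTR sequence. The median GC content of the 101 bp at the centre was 55.4% (54.5 to 55.4), against 43.6% in 3' UTR windows outside regions, 50.5% in the flanks, 52.5% at intron region centres and 59.4% at CDS region centres. Regions with a peak at day 9 alone had the highest median, 56.4%, and regions with a peak at day 0 alone the lowest of the larger groups, 49.5% (42.6 to 54.5). GC content thus moved with the time points, and its part in the calling of peaks was not tested. The ratio of observed to expected CpG was low throughout, 0.265 over all 3' UTR regions, 0.355 for regions with peaks at all time points and 0.240 for day 9 alone, against 0.785 in promoters.

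The excess of the core motif was present in every class of GC content. In windows of 40 to 50% GC, 34.6% (27.7 to 42.1) of 3' UTR regions and 7.77% of 3' UTR windows outside regions held TGTGGT, a difference of 26.9 points (20.3 to 34.1). At 50 to 60% GC, where 468 of the regions lay, the values were 25% (21.1 to 29.2) and 8.34%. At 60% and over they were 11.9% (7.71 to 17.3) and 6.17%, a difference of 5.75 points (1.87 to 11.1). The 31 regions under 40% GC held it in 29.0% (14.2 to 48.0). The motif share thus fell with GC content within the regions from 40% upwards, while outside regions it ranged only from 5.62% to 8.34%.

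Other motifs were present in fewer centres. TGCGGT, a variant of the core motif, was found in 3.10% (2.05 to 4.48) of centres, where all regions gave 3.32%. The flanks gave 0.976% and 3' UTR sequence outside regions 0.829%. TGANTCA, the AP-1 motif, lay within 50 bp of the centre in 36 regions or 4.13% (2.91 to 5.68), where all regions gave 4.20%, the flanks 2.18% and 3' UTR sequence outside regions 2.69%. It was more frequent in regions with peaks at all time points, 8.72% (4.73 to 14.5), than in those with a peak at day 9 alone, 3.07% (1.60 to 5.30), a difference of 5.66 points (1.47 to 11.4). Intron regions gave 7.22% and 2.51% for the same groups, whereas CDS regions gave 1.12% and 1.77%. None of the 36 regions with a peak at day 0 alone held it, which allows a share of up to 9.74%, beside 10.9% of intron regions of that group. GGGCGG, the GC box bound by Sp factors, was found in 4.94% (3.60 to 6.59) of centres, 3.21% of the flanks and 1.45% of 3' UTR sequence outside regions, a difference from the latter of 3.48 points (2.23 to 5.13). It was found in 3.37% of intron and 29.4% of promoter centres, and in 8.44% of the centres of all regions. GGAATG, the motif of TEAD factors, was found in 6.31% of centres, where all regions also gave 6.31%. Outside regions it was found in 5.48%, and the interval of the difference included 0. The polyadenylation signal AATAAA on the transcript strand was found in 3.21% (2.15 to 4.61) of centres against 8.79% of 3' UTR windows outside regions. Within the class of 50 to 60% GC these shares were 2.78% and 1.98%, and within 40 to 50% they were 4.47% and 5.82%, and in both classes the interval of the difference included 0.

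**Figure D5:**
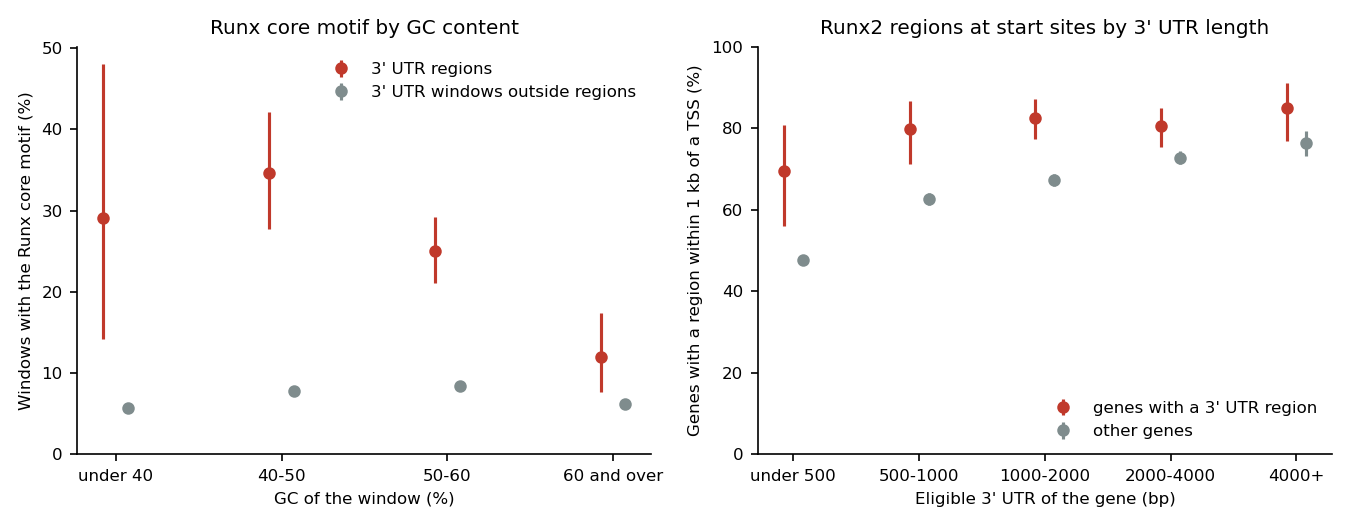
Left, percent of 101 bp windows with the Runx core motif (y axis) by GC content (x axis, %) at 3' UTR region centres and in 3' UTR windows outside regions; right, percent of genes with a Runx2 region within 1 kb of a TSS (y axis) by length of eligible 3' UTR in bp (x axis), for genes with a 3' UTR region and other genes. Points are shares and bars 95% Clopper-Pearson intervals; the 3' UTR regions and their genes lie above the comparison in each class, by 5.75 points in the highest GC class and by 7.73 points for 3' UTRs of 2000 to 4000 bp.

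Genes with a 3' UTR region more often had a Runx2 region at a TSS, in an intron or in the CDS than all genes. A region counted at a TSS if any part of it lay within 1 kb. A wide 3' UTR region could thus count at a TSS of its own gene, and how many did so was not counted. Of the 806 genes, 652 or 80.9% (78.0 to 83.6) had a region within 1 kb of a TSS, against 61.2% of all genes with an eligible 3' UTR. A region in an intron was found in 64.6% against 36.9%, and a region in the CDS in 19.5% against 9.23%. In 65 genes, 8.06% (6.28 to 10.2), no region was counted at a TSS, in the CDS or in an intron, and 28.2% of all genes had none at these places. The difference at TSSs remained within classes of 3' UTR length, from 21.7 points (9.01 to 32.0) under 500 bp to 8.68 points (0.193 to 15.1) at 4000 bp and over. It was similar in genes with peaks at all time points (81.9%), at day 9 alone (82.7%) and at day 0 alone (77.8%, 60.8 to 89.9). The genes with a 3' UTR region were also longer, with a median span of 27504 bp against 19178 bp, and the part of gene length in these shares was not tested. Expression is not part of these lists. To the nearest other region, 3' UTR regions had a median gap of 2385 bp (1986 to 2708), CDS regions 2574 bp and intron regions 3445 bp.

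Lists of genes with known roles in bone held few 3' UTR regions each. Over all genes with an eligible 3' UTR, 4.23% had one. Among 41 genes of TGF-beta and BMP signalling, which direct osteoblast commitment, 5 had a region, 12.2% (4.08 to 26.2), with 7 regions in all. Tgfb3, a ligand, had the highest-ranking, with scores of 656 at day 9 and 524 at day 28 and 3 copies of TGTGGT. The ligands Bmp7 and Bmp6 had a peak at day 9 alone, with scores of 229 and 190. Ski, a repressor of Smad signalling, had 2 regions with day 9 scores of 289 and 151, and Smurf1, a ubiquitin ligase of Smad and BMP signalling, had 2 with 118 and 108. The regions of Bmp6, Bmp7 and Smurf1 and the weaker region of Ski were in the day 9 list only, and none of the 7 was in the day 0 list. Of all 3' UTR regions, 44.9% had a peak at day 9 alone and only 23.1% had one at day 0.

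Wnt signalling, another pathway of bone formation, had a region in 4 of 41 genes, 9.76% (2.72 to 23.1). The ligand Wnt4 had the highest day 9 score of the genes in these lists, at chr4:136853679-136855220, with scores of 1382, 3070 and 1194 at days 0, 9 and 28 and 4 copies of TGTGGT. The transcription factor Tcf7 had 326 at day 9 and 1243 at day 28, the receptor Fzd2 had 121 and 390, and Kremen1, a co-receptor for Dickkopf proteins, had 114 at day 9 alone. The ranks of Tcf7 and Fzd2 were higher in the day 28 list, at percentiles 82.7 and 54.9, than in the day 9 list, at 56.3 and 14.1. Wnt4 went the other way, from percentile 95.1 at day 9 to 81.9 at day 28, and Kremen1 had no peak at day 28.

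Matrix genes had a region in 3 of 37, 8.11% (1.70 to 21.9). Loxl1, an enzyme that crosslinks elastin, had 1441 at day 9 and 2295 at day 28, with 7 copies of TGTGGT in a region of 1731 bp. Col1a1, the main collagen chain of bone, had 316 at day 9 alone, 627 bp after the stop codon, and Col6a1 had 111 at day 9 alone. Of 38 osteoblast transcription factors and cofactors 3 had a region, 7.89% (1.66 to 21.4). Id3, an inhibitor of basic helix-loop-helix factors, had 246, 532 and 334 at days 0, 9 and 28. Runx2 itself had 269 at day 9 alone, at chr17:44742948-44743653, 1553 bp after the stop codon of its longest annotated 3' UTR and with 3 copies of TGTGGT, and Runx3 had 104 at day 9 alone. The intervals of all 4 lists included the 4.23% of all genes. The median eligible 3' UTR was 1249 bp for TGF-beta and BMP, 1614 bp for Wnt, 992 bp for matrix and 1254 bp for transcription factors. Over all genes it was 828 bp, and the part of length in these shares was not tested.

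Several lists had no 3' UTR region. None was found among 30 matrix proteases and their inhibitors, which allows a share of up to 11.6%, among 13 genes of phosphate handling and mineralization (up to 24.7%) or among 8 markers of other lineages (up to 36.9%). Of 28 abundant mRNAs of the cytoskeleton and glycolysis 3 had a region, 10.7% (2.27 to 28.2). Ldha, lactate dehydrogenase A, had 2262 at day 9 and 341 at day 28, Eef2, an elongation factor, had 195, 799 and 589 at days 0, 9 and 28, and Myl9, a myosin light chain, had 141 at day 9 alone. Of 24 endoplasmic reticulum genes 2 had a region, Atf6 with 295, 283 and 596 and P4hb, a subunit of the collagen prolyl hydroxylase, with 108 at day 9 alone. Among 71 ribosomal protein genes, whose 3' UTRs are short, only Rps20 had one (1.41%, 0.0357 to 7.60), with 152 at day 0 alone, in a transcript with an annotated 3' UTR of 3167 bp.

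Genes responsive to shRunx2, as listed by the study in this cell line, had a 3' UTR region in 8 of 144, 5.56% (2.43 to 10.7), and the interval included the 4.23% of all genes. The list was chosen by the study in the same cells, so it is not independent of them. Per Mb of eligible 3' UTR these genes had 38.4 regions, where all genes had 36.6. Gpr116, an adhesion receptor, had 260, 1523 and 456 at days 0, 9 and 28, Id3 had the values above, and Dhrs9, a short-chain dehydrogenase, had 564, 110 and 175. Ifit3, an interferon-induced gene, had 580 at day 9 and 397 at day 28. Pdlim1 (128) and the cystine transporter Slc7a11 (102) had peaks at day 9 alone, and Ly6f had 414 at day 0 alone.

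Of the 4 loci that the study followed in detail, Tnfrsf19, a receptor of the TNF family, had a 3' UTR region, at chr14:61584415-61585407, with 188 at day 9 and 250 at day 28, 383 bp after the stop codon and with TGTGGT within 50 bp of the centre. It was 1 of 9 regions centred in that gene. Adamts4, an aggrecanase, had 2 regions centred in the gene, 1 of them in the CDS and none in the 3' UTR. Crabp2 (a retinoic acid binding protein) and Ezh2 (a histone methyltransferase) had 1 region each in the gene, not in the 3' UTR. Peaks are not expression, so cell identity could not be checked from them. A region lay within 1 kb of a TSS of Runx2, Sp7, Bglap2, Ibsp, Alpl and Col1a1, the osteoblast markers, and also of Sox9, Col2a1 and Pparg, but not of Acan, Fabp4, Adipoq, Myod1 and Myog. Such a region was found in 61.2% of all genes with an eligible 3' UTR.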

How the data were processed

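The authors sequenced 2 Runx2 ChIP-Seq libraries per time point and input DNA of day 9 cells, mapped the reads to mm9, pooled the libraries, called peaks with MACS against input, kept the more significant peaks and deposited a single list for each time point. The submitters' processing notes name CASAVA 1.6, Bowtie 0.12.8 and MACS 1.4.1. The score column that the authors deposited holds −10 × log10 of the MACS p-value and served here to rank or filter peaks within a list. Input libraries and signal tracks were not analysed here.

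All peak ends lay within the chromosomes of NCBIM37, and 3' UTRs, CDS and TSSs came from 51710 protein-coding transcripts of 22359 genes in GENCODE M1. Peaks were merged at 1 bp of overlap, and regions were placed by their centre, with positions near a TSS first, then CDS, 3' UTR, 5' UTR, intron, 5 kb downstream and intergenic sequence. Where several 3' UTRs held a centre, the longest was used. Sites of low mappability were not removed from the genome share. Shares carry Clopper-Pearson, differences Newcombe and medians distribution-free 95% intervals. No test was made, since no time point had replicate lists.

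The regions named are the 10 with peaks at all time points and the highest mean percentile, the 5 highest of each other pattern with at least 10 regions, the 5 genes with most regions, those nearest the TSS limit, members of gene lists (up to 6 each), responsive genes and 4 loci of the study. Gene lists and members were chosen with earlier results of these data known. Merging, placement, motif search and intervals were tested on simulated data. Alternatives covered the score threshold, overlap, list length, TSS limit, placement, annotation, motif and centre. Scripts ran under Python 3.11.15 with SciPy 1.17.1 for intervals, NumPy 2.4.6, and matplotlib 3.10.9 for figures. No sequence from chromosome 18 is printed.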

Additional observations from a re-analysis of the deposited data

How the results depend on the processing

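Of 144 values of 11 results recomputed under alternatives, 105 stayed within the interval of the reported value (for the count, within 1.5 times). The ratio of the 3' UTR share to the genome turned from above to below 1 at scores of at least 500 (0.999) and 1000 (0.797), and was 1.11 at 200 and 1.02 with lists of equal length. At scores of at least 200, 500 and 1000, the number of regions was 446, 216 and 101, their share of all regions 1.09%, 0.980% and 0.782%, their median width 800, 901 and 1148 bp, and the share of genes with a TSS region 73.9%, 60.6% and 46.5%. The share with a peak at day 9 alone was 34.5% at 200 and 39.8% at 500, the share with peaks at all time points 12.9% at 1000, the median day 9 percentile 44.1 at 200 and 51.6 at 1000, and the motif ratio of centres to flanks 2.56 at 1000. With lists of equal length these were 379 regions, 1.0% of all, 24.3% at all time points, 16.1% at day 9 alone, a motif ratio of 2.97, a percentile of 43.5, a width of 924 bp and 73.5% of genes. Joining peaks by centres within 250 bp gave 12.5% at all time points. A TSS limit of 5 kb gave 0.976% of all regions and CCDS transcripts 1.18%. The core motif was found in 12.1% within 25 bp and 39.0% within 100 bp (ratio 2.87), and in 19.4% at day 0 peak centres (ratio 2.52), with a ratio of 4.38 at day 28 peak centres. Fewer peaks remain at higher scores by construction; other causes were not tested. No paired analysis was possible because each time point has 1 pooled list. Scores depend on a depth that the lists do not give, and the interval of a share covers counting error only.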
